A study of Mus musculus with 3 samples.

Results

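The genes described here are the Wnt pathway genes measured in F9 cells: the ligands, the enzyme and carrier that prepare them for secretion, their receptors, their secreted antagonists, the R-spondins, and the proteins that carry the signal to the nucleus. They were chosen by gene symbol, with earlier results of these data known. The choice took probe sets annotated with 1 symbol of the Wnt, Fzd, Sfrp, Dkk, Dvl, Tcf7 or Rspo families or of a short list of named partners. Of 66 gene names that the choice covers, 64 were found, among 18194 named genes on the array, with 133 of its 45101 probe sets. Tcf7 and Sfrp3 had no probe set under those symbols. Tcf7 is not analysed here; Sfrp3 is a synonym of Frzb in the RefSeq gene table, and Frzb, which the choice by symbol does not take in, is described beside the Sfrp genes.

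F9 is a mouse embryonal carcinoma line, a tumour-derived stem cell line that can be turned into endoderm. Total RNA of undifferentiated F9 cells was measured on 3 Affymetrix Mouse Genome 430 2.0 arrays, 1 per labelled replicate, and these form the single group. Per the labels, all were grown on gelatin (0.2%) in medium with 10% fetal calf serum and collected at about 80% confluence; no treatment, differentiated culture or second line is named, so there was no contrast between groups. Every signal is a bulk average, in which fewer cells of a type and less RNA per cell cannot be told apart.

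Wnt ligands are secreted glycoproteins that need a lipid group, added by Porcn, and the carrier Wls to leave the cell. At the receiving cell they bind frizzled receptors together with Lrp5 or Lrp6, which recruits dishevelled and stops a complex of Axin, Apc, Gsk3 and casein kinase from marking β-catenin for destruction, so that β-catenin can join TCF/LEF factors on target genes. In mouse pluripotent stem cells this pathway is known for its support of self-renewal and for its part in the exit towards mesoderm and endoderm.

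After the scaling described below, the median signal lay between 36.0 and 37.8 on the 3 arrays. Background was taken from 127 probe sets for 114 olfactory, vomeronasal, taste receptor and keratin-associated protein genes. Their upper tail differed between arrays, with a 99th percentile of 67.8, 58.0 and 50.1 on replicates 1, 2 and 3. The threshold was their 95th percentile, which lay at 44.6, 46.1 and 43.2 on replicates 1, 2 and 3. Levels below are given as log2 of the signal over that threshold, averaged over the 3 arrays with limma's 95% interval, and a gene is called above background at an adjusted p under 0.05 (limma, one-sided, Benjamini-Hochberg over all probe sets). All 8 pluripotency markers checked, among them Pou5f1, Sox2 and Nanog, were above background. None of 8 fibroblast and none of 10 endoderm markers was called by limma, with 0 and 2 at an unadjusted p under 0.05. Of 7 mesoderm markers listed, 6 were measured, T not among them. Only Eomes of these was called by limma, with 2 at an unadjusted p under 0.05. All these marker counts stand beside a share of 51.1% among all named genes.

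Of the 64 Wnt pathway genes, 28 (43.8%) were above background, against 51.1% of 18080 named genes outside the background families. Their median lay 0.36 log2 units over the threshold, and that of all those genes 0.72; with probe sets of different affinity, the medians describe distance from background and not relative abundance. By role, those above background were 3 of 19 ligands, both genes of ligand acylation and export, 6 of 10 frizzled receptors, 3 of 4 co-receptors and Ror receptors, 2 of 8 genes of the R-spondin arm, 4 of 9 secreted antagonists, 7 of 9 genes of dishevelled and the destruction complex, and 1 of 3 TCF/LEF factors. With no test, 31 of the genes exceeded the threshold on all 3 arrays, against 53.8% of all named genes. These shares rest on each gene's brightest probe set, and 41 of the 64 had several, against 9001 of the 18080. What that did to the comparison was not tested. Not above background means only that the signal was not shown by limma to exceed the threshold. Of the 36 such genes, 26 lay under the threshold on all 3 arrays and 21 had an interval wholly below it.

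**Figure D1:**
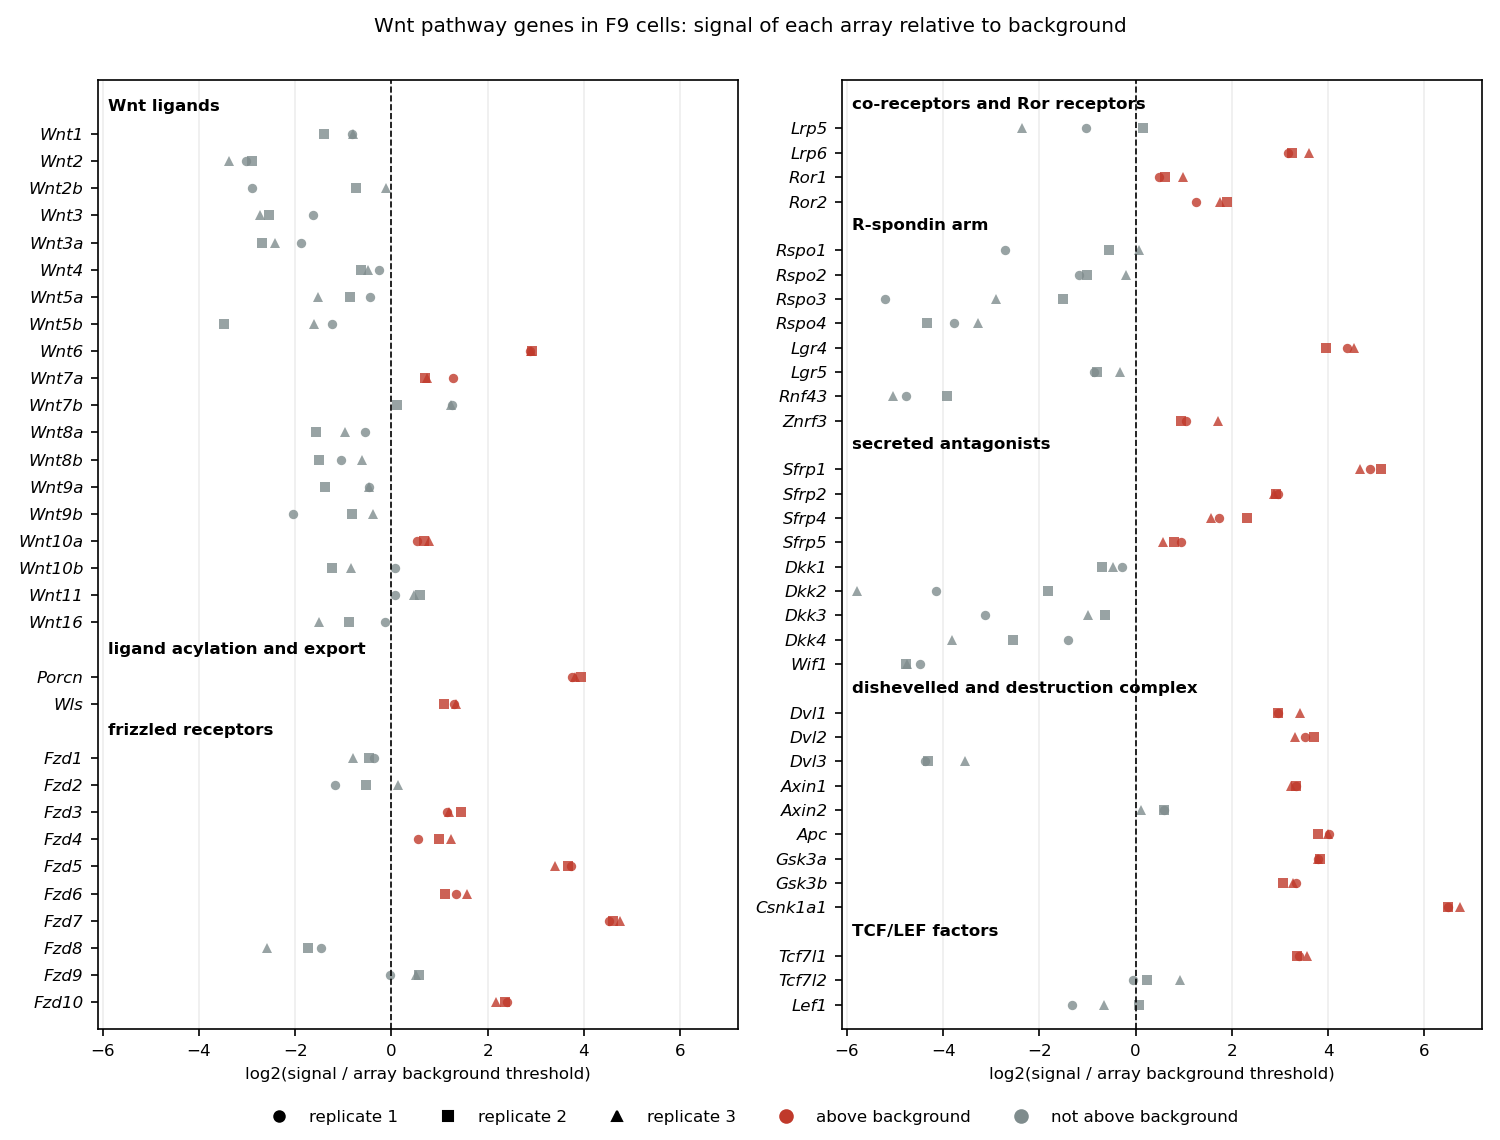
Signal of each Wnt pathway gene on each of the 3 arrays, as log2 of the signal over that array's background threshold (dashed line at 0), with genes ordered by role; the marker shape gives the replicate and red marks the 28 genes above background. Most ligands, all 4 R-spondins and all 4 Dkk genes sit left of or around the line, whereas Porcn, Fzd7, Sfrp1, Lgr4 and the destruction complex genes lie to its right on every array, including Axin2, which was not called.

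The sequence before the start site offers a property that the choice of genes did not use. RefSeq promoters (GRCm38.p6) matched 42 of the 64 genes, and over the 250 bases before the start the ratio of observed to expected CpG dinucleotides was computed, taking the first entry where a gene had several. Vertebrate promoters rich in CpG are known from both housekeeping and developmental genes. Among all named genes with a promoter, the median ratio was 0.767 for the 7617 above background and 0.370 for the 6736 that were not. Of the Wnt pathway genes, 17 above background had a median of 0.667 and 25 not above background one of 0.791. A ratio of at least 0.6 was found in 13 of those 17 (76.5%) and in 19 of those 25 (76.0%), against 74.4% and 30.4% of all genes above and not above background. These are descriptions of a few promoters, with no test.

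The promoters with the highest and the lowest ratio among the genes above background, and then among those not above it, are given here to let the contrast be read, with CpG dinucleotides in capitals. They are the 250 bases before the start of Fzd10 (chr5:128600856-128601105, plus strand), Ror1 (chr4:100095541-100095790, plus strand), Fzd9 (chr5:135251048-135251297, minus strand) and Dkk1 (chr19:30549497-30549746, minus strand).
Fzd10: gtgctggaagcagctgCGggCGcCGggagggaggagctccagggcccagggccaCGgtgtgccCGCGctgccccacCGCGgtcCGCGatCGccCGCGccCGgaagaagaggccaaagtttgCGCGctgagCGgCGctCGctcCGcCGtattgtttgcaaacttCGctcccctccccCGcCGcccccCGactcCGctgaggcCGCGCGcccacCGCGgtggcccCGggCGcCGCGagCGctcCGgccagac
Ror1: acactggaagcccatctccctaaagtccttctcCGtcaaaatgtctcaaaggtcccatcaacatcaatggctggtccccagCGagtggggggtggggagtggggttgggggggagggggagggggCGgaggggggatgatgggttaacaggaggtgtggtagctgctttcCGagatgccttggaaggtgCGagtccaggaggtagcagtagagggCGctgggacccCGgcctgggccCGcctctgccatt
Fzd9: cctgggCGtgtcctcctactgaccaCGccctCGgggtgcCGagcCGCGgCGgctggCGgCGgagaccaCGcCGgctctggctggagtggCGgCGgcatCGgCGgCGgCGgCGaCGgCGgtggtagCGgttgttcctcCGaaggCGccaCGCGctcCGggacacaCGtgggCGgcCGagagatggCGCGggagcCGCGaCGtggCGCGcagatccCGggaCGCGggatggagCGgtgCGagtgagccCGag
Dkk1: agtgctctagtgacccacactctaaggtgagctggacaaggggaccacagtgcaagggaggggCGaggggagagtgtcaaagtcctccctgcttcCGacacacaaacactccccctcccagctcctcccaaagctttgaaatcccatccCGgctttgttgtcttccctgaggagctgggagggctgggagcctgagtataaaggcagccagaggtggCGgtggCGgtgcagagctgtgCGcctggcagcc
Fzd10, above background, has 37 CpG and a ratio of 1.02, and Ror1, also above background, has 8 and a ratio of 0.354. Fzd9, not above background, has 42 and a ratio of 1.18, while Dkk1 has 6 and a ratio of 0.260. The letters CTTTGA, a core that TCF/LEF factors are known to recognise, were searched on both strands. They occur in 6 of the 42 promoters (14.3%) and in 12.1% of all 14353, with 2 matches in Dkk1, 1 in Ror1 and none in Fzd10 or Fzd9; a match is not a binding site.

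**Figure D2:**
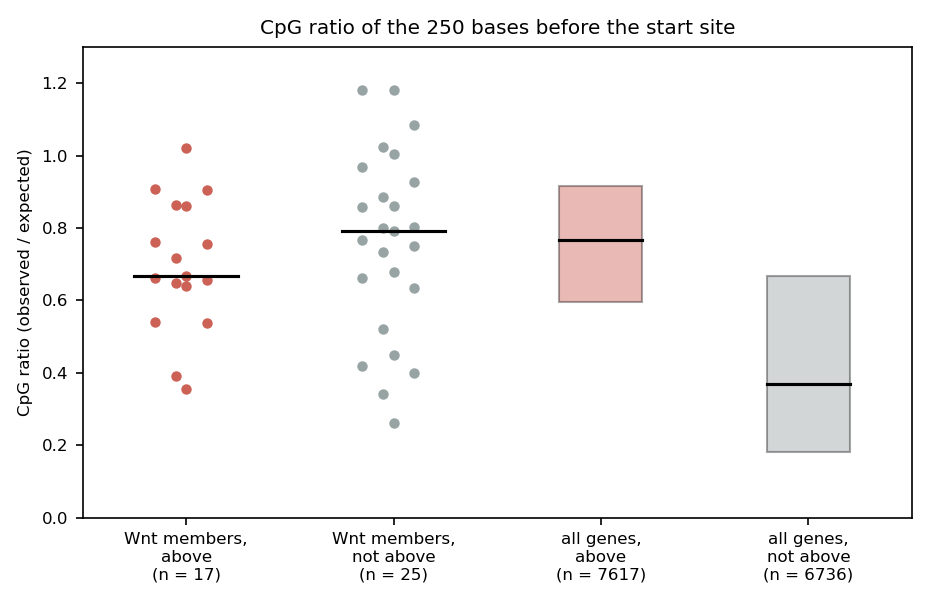
CpG ratio (observed over expected) of the 250 bases before the start site: points are single Wnt pathway genes above (n = 17) and not above background (n = 25), with a line at the median, and boxes span the quartiles of all named genes above (n = 7617) and not above background (n = 6736), the Wnt genes included. The Wnt genes not above background have a median of 0.791, while all genes not above background have one of 0.370.

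Among the ligands, Wnt6 stood clear of background. Its signals were 327, 349 and 324 on replicates 1, 2 and 3, which is 2.90 log2 units over the threshold (95% interval 2.58 to 3.22, limma adjusted p = 0.000193). The arrays hardly differed, and the call held under every alternative tried that kept a probe set of the gene, though a second Wnt6 probe set read 41.1, 36.7 and 46.5 and was not called. Wnt10a, the gene next to Wnt6 on the chromosome in the RefSeq table, had signals of 64.8, 73.3 and 74.1, or 0.66 log2 units (0.30 to 1.02, limma adjusted p = 0.0128). Wnt7a, known from neural and limb patterning, read 108, 74.4 and 72.1 (0.90 log2 units, 0.35 to 1.46, limma adjusted p = 0.0182) on 1 of its 3 probe sets. Both exceeded the threshold on all 3 arrays but by little, and neither call survived the removal of a replicate, whichever it was (Wnt10a then had a limma adjusted p between 0.0565 and 0.0711, and Wnt7a one between 0.0559 and 0.0678), so that 1 ligand remained called without replicate 1 or without replicate 3, and 2 without replicate 2.

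A pair of ligands exceeded the threshold on all 3 arrays without a call. Wnt7b read 106, 49.6 and 102 (0.87 log2 units, -0.10 to 1.83, limma adjusted p = 0.0840); replicate 2 was low, and without it the gene was called (limma adjusted p = 0.0173). Wnt11, a ligand known from β-catenin-independent signalling, read 46.9, 69.5 and 59.5 (0.38 log2 units, -0.12 to 0.87, limma adjusted p = 0.120). Wnt4 lay close under the threshold on every array, at 37.2, 29.8 and 30.6. The other 13 ligands, Wnt1, Wnt2, Wnt2b, Wnt3, Wnt3a, Wnt5a, Wnt5b, Wnt8a, Wnt8b, Wnt9a, Wnt9b, Wnt10b and Wnt16, had means from -3.10 to -0.67 log2 units. Wnt3a, the ligand often added to stem cell cultures, read 12.04, 7.13 and 8.02, under the threshold on every array. Wnt3, which is needed for the primitive streak, read 14.3, 7.89 and 6.46 on its only probe set, one of the type marked _x_at that may match other transcripts. Besides Wnt6 and Wnt10a, the RefSeq table holds the neighbouring pairs Wnt3a with Wnt9a, Wnt9b with Wnt3 and Wnt10b with Wnt1. Neither gene of those pairs was above background, but only 3 of all 19 ligands were. Whether neighbours share a call was not tested.

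Porcn and Wls, the genes of ligand acylation and export, had RNA signals above background. Porcn, the membrane-bound acyltransferase that lipidates Wnt proteins, read 601, 712 and 609, 3.84 log2 units over the threshold (3.49 to 4.19, limma adjusted p = 0.000141). Wls, the carrier that brings lipidated ligands to the cell surface, read 110, 98.6 and 110 (1.25 log2 units, 0.88 to 1.62, limma adjusted p = 0.00229), with 2 of its 4 probe sets called. Both genes thus exceeded the threshold on every array, and kept their call under each alternative.

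Frizzled receptors, the seven-span membrane proteins that bind the ligand, were split within the family. Fzd7 read 1019.9, 1122 and 1164, 4.62 log2 units over the threshold (4.26 to 4.98, limma adjusted p = 0.000119), from 1 of its 2 probe sets; the other read 61.0, 15.3 and 26.2 and was not called. Fzd5 read 590.1, 589 and 456 (3.60 log2 units, 3.20 to 4.002, limma adjusted p = 0.000195), and both of its probe sets were called. Fzd10 read 236, 236 and 195 (2.31 log2 units, 1.95 to 2.67, limma adjusted p = 0.000411) on 1 of 2 probe sets. These receptors lay above the threshold on all 3 arrays by more than the arrays differed. Fzd6, a receptor known from planar cell polarity, read 113, 100.3 and 128 (1.34 log2 units, limma adjusted p = 0.00311) on 1 of its 3 probe sets. Fzd3, which shares that role in neurons and skin, read 99.8, 125 and 98.5 (1.26 log2 units, limma adjusted p = 0.00247), with 2 of its 6 probe sets called. Fzd4, also the receptor of norrin, read 65.5, 90.8 and 102 (0.92 log2 units, limma adjusted p = 0.0187) on 1 of its 3 probe sets. Its call was lost without replicate 2 or without replicate 3 (limma adjusted p = 0.0923 and 0.0735).

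Fzd1, Fzd2, Fzd8 and Fzd9 were not above background. Fzd9 read 43.8, 68.2 and 61.6, just under the threshold on replicate 1 and over it on the others (0.35 log2 units, -0.20 to 0.91, limma adjusted p = 0.175). Fzd1 lay at -0.54, Fzd2 at -0.52 and Fzd8 at -1.93 log2 units, and no probe set of these 3 genes, 7 in all, was called. Fzd2 exceeded the threshold on replicate 3 alone, and Fzd1 and Fzd8 on no array.

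Of the co-receptors for β-catenin signalling, Lrp6 was above background and Lrp5 was not. Lrp6 read 400.3, 436 and 525, 3.34 log2 units over the threshold (2.88 to 3.79, limma adjusted p = 0.000299), with both probe sets called. Lrp5 has 1 probe set, which read 21.6, 51.5 and 8.36 and scattered on both sides of the threshold (-1.08 log2 units, -2.87 to 0.70). The Ror proteins are receptor tyrosine kinases that bind Wnt5a. Ror2 read 107, 173 and 145 (1.64 log2 units, 1.07 to 2.20, limma adjusted p = 0.00355) on 1 of its 2 probe sets. Ror1 read 62.3, 69.9 and 85.2 (0.69 log2 units, 0.21 to 1.17, limma adjusted p = 0.0258) on 1 of its 3 probe sets. Without any one of the replicates Ror1 was not called (limma adjusted p between 0.0680 and 0.0946). Wnt5a itself was not above background on any of its 4 probe sets, the brightest of which read 32.9, 25.4 and 15.1.

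The R-spondin arm raises the number of frizzled receptors at the surface: R-spondins bind Lgr4 or Lgr5 and take away Rnf43 and Znrf3, the ubiquitin ligases that remove frizzleds. None of the 4 R-spondin genes was above background by limma, beside 51.1% of all named genes, and 0 had an unadjusted p under 0.05. Their means ran from -3.79 to -0.80 log2 units. The receptor Lgr4 read 932, 715 and 998, 4.29 log2 units over the threshold (3.77 to 4.82, limma adjusted p = 0.000236), on 1 of its 2 probe sets. The other Lgr4 probe set read 7.95, 1.25 and 2.35, far under the threshold on each array. Lgr5, the receptor known as a marker of intestinal stem cells, read 24.4, 26.3 and 34.4 and lay under the threshold throughout (-0.67 log2 units, -1.19 to -0.15). Znrf3 read 91.8, 88.4 and 141 (1.23 log2 units, 0.57 to 1.89, limma adjusted p = 0.0124) on 1 of its 2 probe sets. It was not called once replicate 1 was removed (limma adjusted p = 0.0501), which leaves 1 called gene in the arm. Rnf43 read 1.62, 3.05 and 1.31 on its only probe set.

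Secreted antagonists belong to several families. Sfrp proteins carry a frizzled-like domain and bind the ligand itself, and Sfrp1, Sfrp2, Sfrp4 and Sfrp5 were above background, beside 51.1% of all named genes. Frzb, the family's other gene, also called Sfrp3, read 2.87, 39.1 and 17.4 and was not (-1.84 log2 units). Sfrp1 read 1306, 1572 and 1088, 4.87 log2 units over the threshold (4.43 to 5.31, limma adjusted p = 0.000140), and each of its 5 probe sets was called. Sfrp2 read 345, 351 and 315 (2.92 log2 units, 2.59 to 3.24, limma adjusted p = 0.000195). Sfrp4 read 149, 230.4 and 128 (1.88 log2 units, 1.24 to 2.51, limma adjusted p = 0.00335), with replicate 2 high. Sfrp5 read 85.8, 79.8 and 64.2 (0.77 log2 units, 0.36 to 1.18, limma adjusted p = 0.0123) on 1 of its 2 probe sets. It was not called once replicate 1 or replicate 2 was removed (limma adjusted p = 0.0707 and 0.0698). Dkk proteins such as Dkk1 act instead on Lrp5 and Lrp6. None of the 4 Dkk genes was called by limma, with 0 at an unadjusted p under 0.05. A difference between the families was not tested. Dkk1 lay close under the threshold, at 36.6, 28.4 and 31.3 (-0.48 log2 units, -0.91 to -0.05). Dkk2, Dkk3 and Dkk4 had means from -3.92 to -1.58, and Wif1, another ligand-binding inhibitor, read 1.98, 1.67 and 1.59. The fibroblast, endoderm and mesoderm marker counts given above stand beside these genes, and what part other cells had in the Sfrp signals was not tested.

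Inside the cell, the genes that hold β-catenin in check were above background with the exception of Axin2. Csnk1a1, the kinase that primes β-catenin, read 4041, 4174 and 4594 (6.58 log2 units, 6.21 to 6.95, limma adjusted p = 0.000109), with 4 of 5 probe sets called. Apc, a scaffold of the destruction complex, read 720.2, 634 and 691 (3.93 log2 units, limma adjusted p = 0.000147), with 3 of 4 probe sets called. Axin1, its limiting scaffold, read 447, 462 and 404 (3.29 log2 units, limma adjusted p = 0.000163). The Gsk3 kinases mark β-catenin for ubiquitination: Gsk3a read 620 on replicate 1, 653 on replicate 2 and 598 on replicate 3 (3.80 log2 units, limma adjusted p = 0.000128), and Gsk3b read 451, 386 and 419 (3.23 log2 units, limma adjusted p = 0.000214), with 4 of 6 probe sets called. All 5 genes kept their call under each alternative. Axin2, an inhibitor that the pathway itself is known to induce, read 67.1, 69.8 and 46.9, over the threshold on each array but by little (0.44 log2 units, -0.06 to 0.93, limma adjusted p = 0.0875).

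Dishevelled proteins link frizzled to the destruction complex. Dvl1 read 346, 357 and 459 (3.11 log2 units, 2.62 to 3.59, limma adjusted p = 0.000410) and Dvl2 read 511, 599 and 429 (3.51 log2 units, 3.09 to 3.93, limma adjusted p = 0.000222), with both probe sets of each called. Dvl3 read 2.15, 2.30 and 3.72 on its single probe set (-4.08 log2 units, -4.80 to -3.35), so it lay far under the threshold on every array, and no other probe set bears on it.

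Of the nuclear factors, Tcf7l1 was above background. Tcf7l1, known in mouse stem cells as a repressor of pluripotency genes that β-catenin releases, read 466, 475 and 507 (3.43 log2 units, 3.08 to 3.78, limma adjusted p = 0.000168), and its second probe set was called as well. Tcf7l2 read 43.0, 53.9 and 82.3 on the brightest of 4 probe sets, from just under to over the threshold (0.37 log2 units, -0.40 to 1.14, limma adjusted p = 0.283). Lef1 read 17.8, 48.6 and 27.5 (-0.63 log2 units, -1.65 to 0.39), over the threshold on replicate 2 alone.

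Probe sets of 1 gene often disagreed. More than 1 probe set was available for 41 of the genes, and in 16 of these (39.02%) they fell on both sides of the call. Of the rest, 7 had all of them above background and 18 had none. Over all named genes with several, 39.9% had them on both sides. At the level of probe sets, 48 of 133 (36.1%) were above background, against 45.2% of all probe sets with 1 symbol. The 16 were Wnt6, Wnt7a, Wls, Fzd3, Fzd4, Fzd6, Fzd7, Fzd10, Ror1, Ror2, Lgr4, Znrf3, Sfrp5, Apc, Gsk3b and Csnk1a1. The 7 genes with agreement above background were Fzd5, Lrp6, Sfrp1, Dvl1, Dvl2, Axin1 and Tcf7l1. With the median over a gene's probe sets in place of the brightest, 2 frizzleds, 1 co-receptor or Ror gene and 0 genes of the R-spondin arm were called. Fzd10, Fzd3, Fzd4, Fzd6, Ror1, Ror2, Wnt7a and Znrf3 turned to values under the threshold. The share of all named genes called with that median is not given here.

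**Figure D3:**
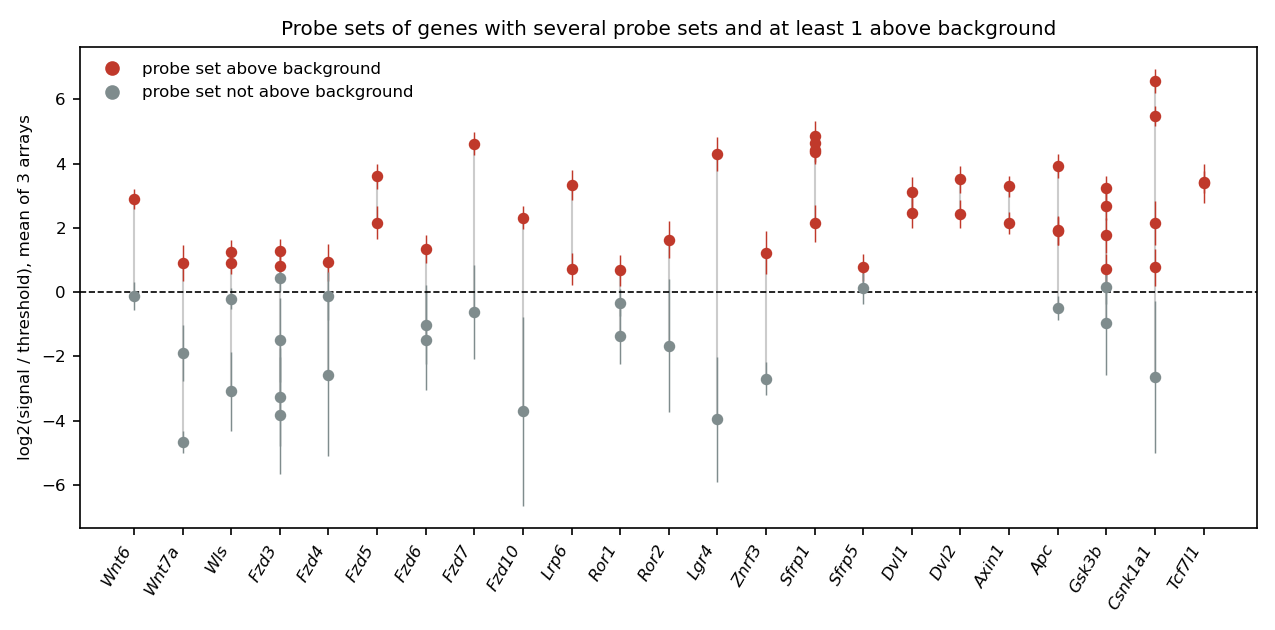
Each probe set of the Wnt pathway genes that have several probe sets and at least 1 above background, as log2 of signal over the background threshold, mean of 3 arrays with limma's 95% interval; red marks probe sets above background. Those of Fzd5, Lrp6, Sfrp1, Dvl1, Dvl2, Axin1 and Tcf7l1 all lie above the dashed line at 0, while Lgr4, Fzd7 and Fzd10 have 1 probe set far above it and 1 below.

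For the 28 genes above background, the median range from the lowest to the highest array was 0.30 log2 units, a 1.23-fold difference, against 0.25 for all 9238 genes above background. Relative to the threshold, 8, 8 and 12 of the 28 were highest on replicates 1, 2 and 3. Of the 9238, these counts were 3008, 1903 and 4327, so the arrays were not evenly matched relative to their thresholds. Those thresholds themselves differed, at 44.6, 46.1 and 43.2 on replicates 1, 2 and 3. What part they had in the counts was not tested. Among the 28, Gsk3a had the narrowest range (0.031 log2 units) and Znrf3 the widest (0.77). The 36 genes not above background had a median range of 1.07, up to 3.98 for Dkk2, which read 2.51, 13.1 and 0.777. A small spread helps a gene to pass the test, so the choice by call in part fixes the gap between these ranges.

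Other genes of the pathway, from lists written by role, were above background in 41 of 73 measured cases (56.2%), with a median of 1.07 log2 units. That share lies near the 51.1% of all named genes, whose median was 0.72, and the counts by list are given as a description. β-catenin itself, Ctnnb1, read 7648, 7881 and 7895, 7.45 log2 units over the threshold (limma adjusted p = 0.000109), and all 3 of its probe sets were called. Of β-catenin and its nuclear partners, 10 of 14 passed, including Jup (plakoglobin, 702 ± 126, SD, n = 3), while Ctnnd2 (32.4 ± 10.2) and Bcl9l (59.0 ± 4.63) did not. The cytoplasmic regulators passed in 14 of 19 cases, such as the casein kinases Csnk1d (1573 ± 49.4) and Csnk1e (935 ± 25.5), but not Amer2 (4.09 ± 1.16) or Frat1 (15.6 ± 12.1). Of further extracellular and membrane regulators 7 of 17 passed, among them Kremen1, a receptor for Dkk proteins (97.2 ± 23.3), and Notum, which removes the lipid from Wnt proteins (441 ± 73.8). Sost (7.14 ± 4.40) and Sostdc1 (3.42 ± 2.05) did not pass, nor did Frzb (19.8 ± 18.3), named for its synonym. Planar cell polarity genes passed in 7 of 11 cases, with Vangl1 (582 ± 44.1) and Vangl2 (280.2 ± 35.02) called and Celsr3 (34.3 ± 28.4) and Prickle1 (28.6 ± 12.5) not.

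Some genes are widely used as readouts of β-catenin activity. Of 20 such target genes listed, 18 were measured, Axin2, Lgr5, Lef1 and Dkk1 among them. Of the 18, 4 (22.2%) were called, beside 51.1% of all named genes: Cdx1 (94.6 ± 24.7), Myc (772 ± 10.5), Ccnd1 (629 ± 31.7) and Notum. Sp5 (7.74 ± 2.16) and Cdx2 (18.0 ± 14.1) did not pass, nor did the 4 measured Wnt pathway genes on that list. The list is a short one drawn from several tissues, many of its genes also answer to other signals, and no sample with the pathway switched on or off was measured, so these counts do not measure pathway activity.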

How the data were processed

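RNA of 3 replicate F9 samples was measured on 3 Affymetrix arrays. For each probe set and array the authors deposited a linear signal intensity; GCOS 1.4 is named in the submitters' processing notes, but for the signal algorithm and detection calls no source used here names one. These values had been scaled, since their trimmed mean (2% off each end) was 250.0 on every array, which hides differences in total RNA per cell. Nothing further was normalised.

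Symbols came from a 2016 platform annotation: 34945 probe sets had 1 symbol, 932 several and 9160 none, controls left out. All 64 member symbols matched the RefSeq gene table by gene identifier. A gene is represented by its probe set of highest mean signal. Because probe sets differ in affinity, genes were set against background and not against each other. Log2 signal over the array's threshold was tested by an intercept fit and eBayes in limma 3.58.1 under R 4.3.3, one-sided; the script was tested on simulated data. No set test was made. The labels do not say whether replicates were separate cultures, so the p-values reflect the scatter of these samples alone, possibly a technical one, and the number of arrays limits the precision.

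Members, lists and tests were chosen with earlier results of these data known. Signals on each array are given for members above background, for members with probe sets on both sides and for those within 0.5 log2 units of the threshold, and others were added where a role called for one; of the other pathway genes, Ctnnb1 and the first 2 called and not called of each list are given, besides the 4 called targets. The alternatives were the 90th and 99th percentile, olfactory receptors alone as background, other choices of probe set, quantile normalisation, a rule with no test, and leaving out each replicate.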

Additional observations from a re-analysis of the deposited data

How the results depend on the processing

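The total of 28 Wnt pathway genes above background ran from 19 to 31 over 11 alternatives, and from 23 to 24 with 1 replicate left out. The share of all named genes called is given above only for the main setting and the rule with no test. Whether the Wnt pathway counts moved more than those of other genes was therefore not examined. In all, 17 genes stayed called under each alternative that gave them a value. The count of ligands was 5 at the 90th percentile, 1 at the 99th, 5 with the rule that uses no test, and 1 to 2 with a replicate left out, since Wnt7a and Wnt10a lie close to the threshold and Wnt7b and Wnt11 just short of a call. The R-spondin arm had 1 called gene at the 99th percentile, 0 with the median over probe sets (0 of 8, limma), and 1 to 2 with a replicate left out. With that median, called frizzleds numbered 2 and co-receptor and Ror genes 1, and log2 values turned negative for Fzd10 (-0.70), Fzd3 (-0.53), Fzd4 (-0.12), Fzd6 (-0.45), Ror1 (-0.33), Ror2 (-0.016), Wnt7a (-1.91) and Znrf3 (-0.73), because dimmer probe sets of the same gene enter it. The other role counts stayed within 1.5 times their value, and the 41 other pathway genes above background ran from 35 to 43. Olfactory receptors alone, quantile normalisation, the choice by suffix and leaving out _s_at and _x_at probe sets changed no member's call; the last leaves Wnt3 without a probe set. The promoter medians and the spread moved by less than 1 SD under the alternatives run, which were added after the data were seen and left out quantile normalisation. The promoter sequences are the same in every setting and only the calls change, so for them this says little. No paired analysis was possible because all samples form 1 group. Signals near background limit the calls: the 6 genes within 0.5 log2 units of the threshold were all uncalled.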
